A study of Mus musculus with 2 samples.

Results

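The proteasome genes of the table were taken as every gene whose symbol begins with Psm, one letter from a to g and a digit, and 49 of the 23284 genes listed met that rule. RNA had been sequenced from macrophages of infarcted hearts of C57BL/6 mice, collected 3 days after the left anterior descending coronary artery had been tied off. One library came from Ly6Chi macrophages and the other from Ly6Clo macrophages, so each population has 1 library, with no replicate and no test. Ly6C is a surface protein that is high on inflammatory monocytes and on the cells that derive from them. No transgene or drug treatment is given for either group, and the labels do not say how many animals were pooled or how the cells were sorted.

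The 26S proteasome is the large protease that degrades proteins tagged with ubiquitin. Its barrel, the 20S core, is built of alpha rings that gate the entry and beta rings that cut, and its cap, the 19S regulatory particle, binds ubiquitin chains, unfolds the substrate and feeds it in. Interferon-gamma induces 3 beta subunits, encoded by Psmb8, Psmb9 and Psmb10, which take the place of the catalytic subunits encoded by Psmb5, Psmb6 and Psmb7 in newly assembled cores. That form, the immunoproteasome, is abundant in antigen-presenting cells and yields peptides suited to MHC class I molecules.

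The measure reported for each gene is the signed statistic of the authors' deposited table, a score without a stated unit that compares the 2 libraries. The column headings do not say which population a positive value belongs to, and the headings of the per-library values name neither sample, so levels in each library and fold changes are not given here. Ly6c2, a gene of the Ly6C antigen, had -1.78 in the authors' deposited table and serves only as a landmark of the negative side. Sizes depend on how the statistic was weighted and signs near 0 on how the libraries were scaled, and neither is given in the sources used here. All 49 members had a value other than 0, as did 16302 of the 23284 genes.

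The labelled cell type was set beside marker genes. All 7 macrophage markers had values other than 0, and 6 were negative in the authors' deposited table, from -0.786 for Fcgr1 to -0.208 for Itgam, with Csf1r at 0.248. All 5 dendritic cell markers were positive in the authors' deposited table, between 1.20 for Itgax and 2.84 for Ccr7, and all 4 fibroblast markers were positive, between 0.919 for Pdgfra and 2.14 for Col1a1. The 3 neutrophil markers found lay between 0.191 for Mpo and 0.544 for S100a8, while of the 2 T cell markers Cd3d had -0.0812 and Cd3e was at exactly 0. The endothelial receptor gene Kdr had -0.569 and the B cell marker Cd79a had 0.196 in the authors' deposited table. The part that these other cells play in the proteasome values was not tested.

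The sequences that bear on the contrast between the 2 kinds of core are the promoters of its catalytic subunit genes. The 250 bases before the start site of Psmb9, Psmb8 and Psmb10, and of Psmb6 and Psmb5, are printed 5′ to 3′ from RefSeq on GRCm38.p6, the assembly also called mm10. They lie at chr17:34187331-34187580 on the minus strand for Psmb9, chr17:34197945-34198194 on the plus strand for Psmb8, chr8:105938393-105938642 on the minus strand for Psmb10, chr11:70525107-70525356 on the plus strand for Psmb6 and chr14:54617996-54618245 on the minus strand for Psmb5. The RefSeq gene model of Psmb6 begins at 70525324, inside the printed stretch. In GENCODE M21, Psmb9 extends to 34187764 and Psmb8 begins at 34197721, so both printed stretches lie wholly inside those gene models. Psmb10, which extends to 105938444, and Psmb5, which extends to 54618022, also reach into theirs. The start sites meant here are those of the RefSeq windows. Capitals mark matches to the motifs described with the promoters further on.
Psmb9: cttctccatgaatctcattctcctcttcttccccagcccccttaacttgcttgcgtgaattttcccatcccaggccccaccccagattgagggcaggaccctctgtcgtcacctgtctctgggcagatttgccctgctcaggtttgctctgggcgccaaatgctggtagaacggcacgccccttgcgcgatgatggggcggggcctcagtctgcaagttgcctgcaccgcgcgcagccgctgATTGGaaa
Psmb8: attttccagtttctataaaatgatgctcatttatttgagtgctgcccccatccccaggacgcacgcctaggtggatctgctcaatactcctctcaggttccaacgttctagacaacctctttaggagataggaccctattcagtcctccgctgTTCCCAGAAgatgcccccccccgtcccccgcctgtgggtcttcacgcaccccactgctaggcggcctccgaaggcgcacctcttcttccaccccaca
Psmb10: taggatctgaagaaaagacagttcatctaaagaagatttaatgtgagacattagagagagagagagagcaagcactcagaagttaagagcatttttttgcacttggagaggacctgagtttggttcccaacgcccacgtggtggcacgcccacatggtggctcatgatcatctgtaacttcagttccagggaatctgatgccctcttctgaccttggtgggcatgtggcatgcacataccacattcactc
Psmb6: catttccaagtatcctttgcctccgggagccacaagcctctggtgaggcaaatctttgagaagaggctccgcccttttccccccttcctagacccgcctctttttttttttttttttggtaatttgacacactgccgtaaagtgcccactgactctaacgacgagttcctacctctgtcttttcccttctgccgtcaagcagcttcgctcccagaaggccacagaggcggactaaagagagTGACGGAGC
Psmb5: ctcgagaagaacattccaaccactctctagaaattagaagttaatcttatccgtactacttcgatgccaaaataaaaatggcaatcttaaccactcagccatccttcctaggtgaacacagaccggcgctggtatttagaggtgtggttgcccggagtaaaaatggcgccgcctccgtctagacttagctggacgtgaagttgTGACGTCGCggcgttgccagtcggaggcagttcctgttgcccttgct

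The members lay mostly on the side of Ly6c2. Of the 49 genes, 39 were negative and 10 positive, against 42.3% negative and 57.7% positive among all genes with a value other than 0. Their median statistic, computed from the authors' deposited table, was -0.129 with a 95% binomial interval of -0.159 to -0.0839 over genes, against 0.00512 for all genes with a value. That interval concerns the median alone, takes member genes as independent draws and holds no error between replicates. In bulk RNA, fewer cells of a type and less RNA per cell cannot be told apart. Values of members ran from -0.304 for Psmb6 to 0.262 for Psmc3ip in the authors' deposited table, so no member reached a size of 0.5, where 1.41% of all genes with a value lay at -0.5 or lower and 5.39% at 0.5 or higher. In all, 30 of the 49 exceeded the median size of all genes with a value, 0.110. At a size of 0.1 or more, 28 members were negative, where 22.3% of all genes with a value lay at -0.1 or lower. At the same size, 2 members were positive, where 30.5% of all genes with a value lay at 0.1 or higher. At 0.05 or more, 37 members were negative and 6 positive, against 31.5% and 39.6% of all genes with a value. Psmc3ip, the highest member, shares the name but encodes a recombination cofactor that works in meiosis and is no proteasome subunit.

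**Figure D1:**
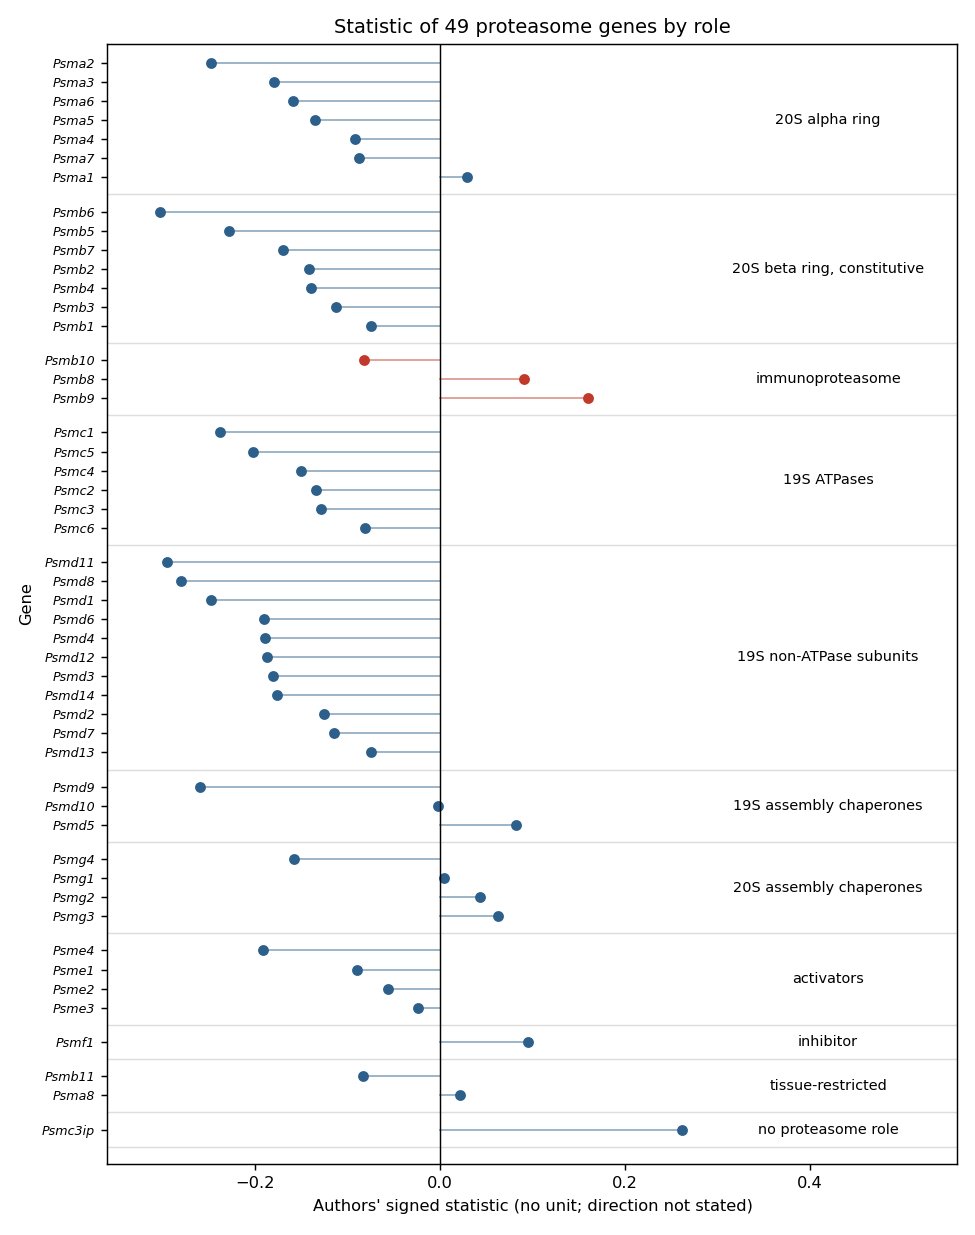
Statistic of each of the 49 genes in the authors' deposited table (horizontal axis, no unit, direction not stated), grouped by role down the page, with 1 point a gene and a line to 0. The constitutive subunits lie left of 0 except Psma1 at 0.0289, under 0.05 in size, and Psmb8 and Psmb9 lie right of it.

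The constitutive subunits, 31 genes of the 20S rings and the 19S cap, were mostly negative. Of these, 30 were negative, and their median in the authors' deposited table was -0.159 with an SD of 0.0730 over genes, where the SD was 0.0784 over 8 genes of the CCT chaperonin, 0.0846 over 9 of the COP9 signalosome and 0.271 over all genes with a value. The remaining one, Psma1, was under 0.05 in size. The 18 members outside that set, which are immunoproteasome subunits, chaperones, activators, the inhibitor, tissue-restricted subunits and Psmc3ip, held 9 negative and 9 positive values, with a median of 0.000985. At a size of 0.05 or more these were 7 negative and 6 positive.

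**Figure D2:**
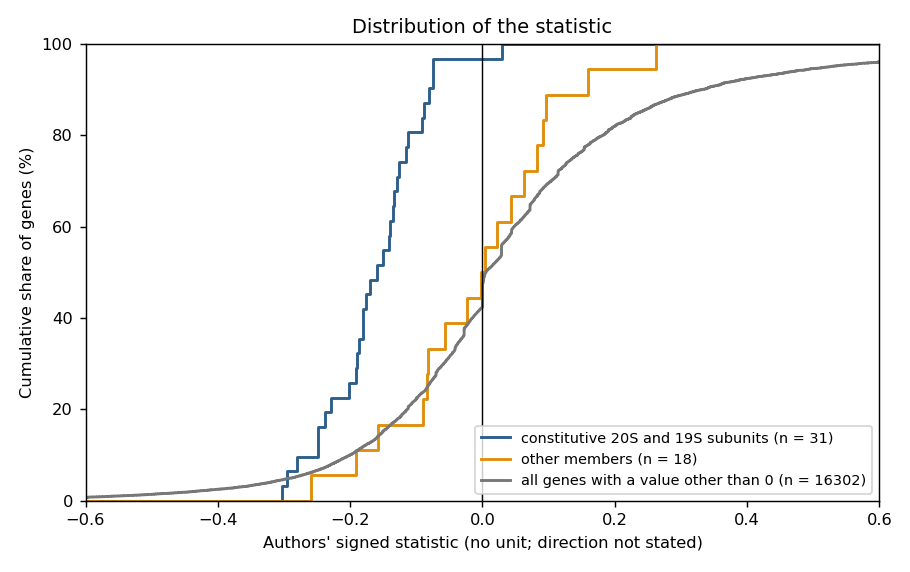
Cumulative share of genes (%, vertical axis) by the statistic of the authors' deposited table (horizontal axis, no unit, direction not stated) for the 31 constitutive subunits, the other 18 members and all 16302 genes with a value other than 0. The curve of the constitutive subunits reaches 96.8% at 0, where that of all genes stands at 42.3%.

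Of the interferon-inducible subunits, 2 of 3 were positive, against 0 of 3 of the catalytic subunits they replace. Positive scores made up 57.7% of the nonzero scores across the whole table. A count of 2 of 3 therefore does not by itself set the interferon-inducible subunits apart from other genes. Psmb9, which replaces the caspase-like subunit, had 0.160 and Psmb8, which replaces the chymotrypsin-like subunit, had 0.0909 in the authors' deposited table. Psmb10, which replaces the trypsin-like subunit, had -0.0818 in the authors' deposited table. Psmb9 and Psmb8 therefore lay on the side opposite to Ly6c2, at positions 2 and 4 from the top of the 49 genes, and Psmb10 did not. All 31 constitutive subunits had a lower statistic than Psmb9 and Psmb8, and 27 of 31 a lower one than Psmb10.

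The 3 constitutive catalytic subunits were all negative and were the lowest of the beta ring. Psmb6, the caspase-like subunit, had -0.304 and rank 2549 of 23284 by size in the authors' deposited table, the lowest value of any member. Psmb5, the chymotrypsin-like subunit and the main target of bortezomib, had -0.228 and Psmb7, the trypsin-like subunit, had -0.170 in the authors' deposited table. The immunoproteasome statistic exceeded that of the subunit it replaces by 0.463 for Psmb9 over Psmb6, by 0.319 for Psmb8 over Psmb5 and by 0.0883 for Psmb10 over Psmb7. All 3 differences had the same sign, with no replicate to give them an error. Copies of Psmb5 elsewhere in the genome could take part of its reads. The differences are between scores and do not give a ratio of the transcripts.

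**Figure D3:**
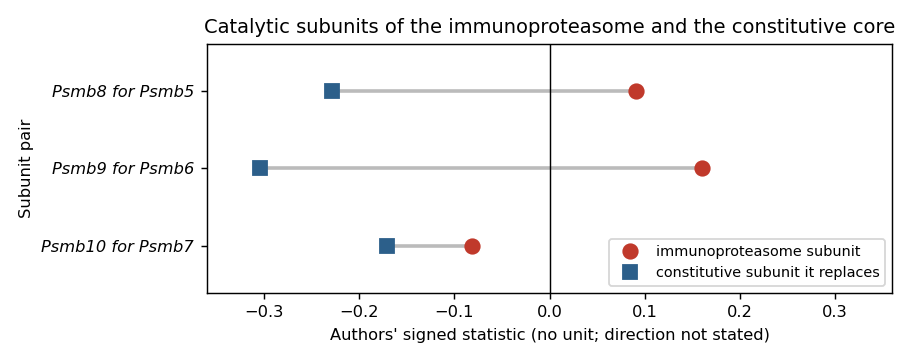
Statistic in the authors' deposited table (horizontal axis, no unit, direction not stated) of each immunoproteasome subunit gene (circles) and of the constitutive catalytic subunit gene it replaces (squares), with 1 pair a row. Each circle lies right of its square, by 0.463 for Psmb9 and Psmb6 and by 0.0883 for Psmb10 and Psmb7.

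The remaining beta subunits, which have structural roles and no catalytic threonine, were also negative. They ran from -0.142 for Psmb2 to -0.0743 for Psmb1 in the authors' deposited table, with Psmb4 and Psmb3 at -0.140 and -0.112. All 4 lay closer to 0 than the 3 catalytic subunits. In the alpha ring, whose amino termini form the gate of the barrel, 6 of 7 genes were negative with a median of -0.135. Psma2 was lowest at -0.248, Psma3 had -0.180, Psma6 -0.159 and Psma5 -0.135 in the authors' deposited table. Psma4 and Psma7 had -0.0917 and -0.0878, and Psma1 had 0.0289, in the authors' deposited table. The 6 negative genes of the ring were all over 0.05 in size and Psma1 was under it, so its sign is not read.

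All 17 subunits of the 19S cap that met the symbol rule were negative. The 6 ATPases, which unfold the substrate and open the gate, had a median of -0.143 and ran from -0.238 for Psmc1 to -0.0814 for Psmc6 in the authors' deposited table. Psmc5, Psmc4, Psmc2 and Psmc3 lay between them at -0.202, -0.151, -0.134 and -0.129. The 11 non-ATPase subunits had the lowest median of the role groups with 3 or more genes, -0.187. Among the 8 lid genes, Psmd11 had -0.296 and Psmd8 -0.280, at positions 2 and 3 from the bottom of the 49 genes, and Psmd13 was closest to 0 at -0.0744 in the authors' deposited table. Psmd14, the deubiquitinase that removes the ubiquitin chain before degradation, had -0.177 in the authors' deposited table. The remaining lid genes Psmd6, Psmd12, Psmd3 and Psmd7 had -0.191, -0.187, -0.181 and -0.115 in the authors' deposited table. In the base, the large scaffold genes Psmd1 and Psmd2 had -0.248 and -0.126, and Psmd4, a ubiquitin receptor, had -0.189 in the authors' deposited table.

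Genes that assemble or regulate the particle had values of both signs, several of them under 0.05 in size, where the sign is not read. Of the chaperones of the 19S base, Psmd9 had -0.260, Psmd10, also known as gankyrin, had -0.00186 and Psmd5 had 0.0824 in the authors' deposited table. Among 4 chaperones of the 20S core, Psmg4 had -0.158, while Psmg1, Psmg2 and Psmg3 had 0.00383, 0.0429 and 0.0628 in the authors' deposited table. Of the 4 activators, 3 were negative at a size of 0.05 or more, with Psme4, which encodes PA200, lowest at -0.191 in the authors' deposited table. Psme1 and Psme2, the interferon-inducible subunits of the PA28 activator, had -0.0895 and -0.0567, and Psme3, the nuclear PA28 subunit, had -0.0235 in the authors' deposited table. Psme1 and Psme2, which interferon-gamma induces together with the immunoproteasome subunits, thus lay on the opposite side from Psmb8 and Psmb9. Psmf1, named for its inhibition of the core in vitro, had 0.0953 in the authors' deposited table. Psmb11, the thymus subunit, had -0.0839 and Psma8, the testis subunit, had 0.0219, both at tied ranks in the authors' deposited table. The ranks of Psmg2 and Psmg3 were tied as well.

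Partner genes outside the symbol rule lay largely with the constitutive subunits. Of 19 partner genes found, 15 were negative, against 42.3% of all genes with a value other than 0. Their median, computed from the authors' deposited table, was -0.0968. At a size of 0.05 or more, 11 were negative and 2 positive, against 31.5% and 39.6% of all genes with a value. Zfand5, a proteasome-activating zinc finger protein, had -0.327, and Shfm1, listed under that older symbol of Sem1 and encoding the small lid subunit, had -0.280. Akirin2, which in human cells brings proteasomes into the nucleus, had -0.237 and Txnl1, a thioredoxin bound to the 19S cap, had -0.231 in the authors' deposited table. The ubiquitin receptor gene Adrm1 had -0.187, the core maturation factor gene Pomp had -0.106 and the unfoldase gene Vcp had -0.227 in the authors' deposited table. Nfe2l1, which encodes the factor that raises transcription of proteasome genes when the protease is inhibited, had 0.0078 in the authors' deposited table. Ubiquitin genes and their E1 enzymes divided into 4 negative and 3 positive, and into 2 negative and 3 positive at a size of 0.05 or more. The stress-inducible polyubiquitin gene Ubb had -0.320, the E1 gene Uba1 had -0.134 and the ubiquitin fusion gene Rps27a had 0.0858 in the authors' deposited table. Uba7, the E1 of the interferon-induced modifier ISG15, had 0.158 in the authors' deposited table.

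Interferon regulators and class I genes were the lists closest to the immunoproteasome by function. Of 12 regulators, 7 were positive and 5 negative, a division close to the 57.7% positive and 42.3% negative of all genes with a value. Their median was 0.0561, computed from the authors' deposited table. The kinase gene Jak2 had 0.605, the interferon-gamma receptor genes Ifngr1 and Ifngr2 had 0.430 and 0.152, and Irf1, a transcription factor that acts on the promoters of Psmb8, Psmb9 and Psmb10, had 0.397 in the authors' deposited table. Of 11 class I genes, 8 were negative and 3 positive, and the median was -0.0809. Tap1, the peptide transporter gene next to Psmb9, had 0.240, against -0.238 for the light chain gene B2m and -0.453 and -0.307 for the chaperone genes Calr and Pdia3 in the authors' deposited table. Neither list was of one sign. The dendritic cell, fibroblast and neutrophil markers found were all positive, with sizes above those of any immunoproteasome gene. The part of such cells in the values of these genes was not tested.

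**Figure D4:**
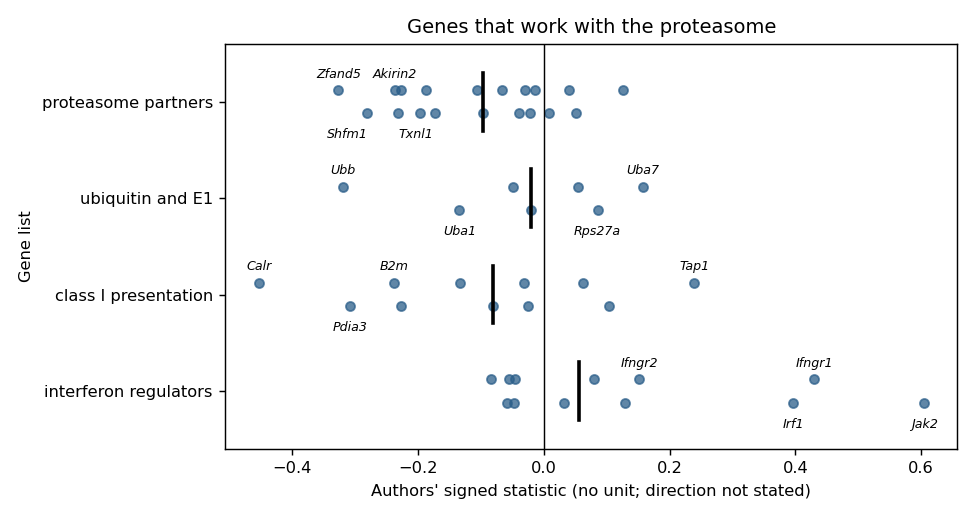
Statistic in the authors' deposited table (horizontal axis, no unit, direction not stated) of genes in 4 lists, with 1 point a gene, a bar at each median and names for the 4 largest sizes in each list. The median is -0.0968 for the proteasome partners and 0.0561 for the interferon regulators.

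Members lie on 16 chromosomes, and 9 of the 49 are on chromosome 11. Psmb8, at chromosome 17 from 34198195 to 34201454, and Psmb9, from 34182030 to 34187330, sit in the MHC region. In GENCODE M21 Psmb9 overlaps Tap1 on the opposite strand, and both were positive, at 0.160 and 0.240 in the authors' deposited table. Without a stated strand setting, reads from the overlap cannot be told apart between Psmb9 and Tap1. In all, 19 of the 49 members overlap an annotated gene on the opposite strand. Some such pairs had opposite signs, as for Psmc3ip at 0.262 with Mlx at -0.184 and Psmc3 at -0.129 with Slc39a13 at 0.151. Separately, 8 members have a protein-coding gene starting head to head within 1000 bases. An example is Psma2 with the mitochondrial ribosomal gene Mrpl32, 75 bases apart at their starts, at -0.248 and -0.143 in the authors' deposited table. Both values were negative, at any size, in 6 of the 8 pairs, while Psmc2 had -0.134 and its partner Dnajc2 had 0.101. The share of all genes with such neighbours was not computed, and a link between the values of neighbours was not tested.

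Sequence in common with other annotated genes, on either strand, limits a few of these values. When transcripts were cut into runs of 50 bases, 20 of 49 members had none that also occurred in another annotated gene, and 4 had more than 20% in common. These were Psmb5 at 54.1%, Psma5 at 49.96%, Psme2 at 28.3% and Psmd9 at 24.9%. For Psme2 all of the common runs were found in Psme2b, a near copy that the table does not list. For Psmd9 nearly all, 24.7% of its runs, were found in Gm26745, which overlaps Psmd9 on the opposite strand and is no copy elsewhere. Neither the counting of reads with several matches nor the strand setting is given, so the values of Psmb5, Psma5, Psme2 and Psmd9 are uncertain. Psmb6 shared 1.05%, Psmb9 4.19%, Psmb8 11.9% and Psmb10 none. The runs of Psmb9 were in common with Tap1 and most of those of Psmb8 with Gm20496, genes that overlap them on the opposite strand.

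Promoter windows of 300 bases, from 250 before to 50 after the start site, were found for 41 of the 49 members. Psma8, Psmb1, Psmb2, Psmb7, Psmc3, Psmd3, Psmd7 and Psmg2 were without one. A simple form of the antioxidant response element, TGACNNNGC on either strand, was found in 6 of 41 member genes, 14.6%, against 13.99% of 27025 genes with a promoter window. It was present in Psmb5 as TGACGTCGC at bases -47 to -39 and in Psmb6 as TGACGGAGC at -9 to -1, counted from the start site of the window. The capitals in both printed sequences show these matches. Psmc6, the ATPase gene closest to 0 at -0.0814, also held a match, and Psmd11, at -0.296, held none. A link of the match with the statistic was not tested. A core of the interferon-stimulated response element, GAAA and GAAA with any 2 bases between them on either strand, was found in 5 member genes, 12.2%, against 3.99% of all genes. Those genes were Psme1, Psmb3, Psmd4, Psmd9 and Psmg4, and none was an immunoproteasome subunit. The windows of Psmb8 and Psmb9 lie inside their GENCODE gene models, and sequence before the GENCODE starts was not searched. All 5 of them were negative, from -0.260 for Psmd9 to -0.0895 for Psme1 in the authors' deposited table. So were 39 of all 49 members, and a link of this match with the statistic was not tested. A gamma-activated site, TTCNNNGAA, which reads the same on both strands, was found in 3 member genes, 7.32%, against 9.55% of all genes. Psmb8 held it as TTCCCAGAA at bases -97 to -89, shown in capitals. The NF-Y box CCAAT on either strand was found in 15 member genes, 36.6%, against 41.1% of all genes, and the capitals near the end of the Psmb9 sequence mark it in reverse. The Psmb10 sequence has no match in these 250 bases. A match describes letters only, and a window without one says nothing of the factor.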

How the data were processed

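RNA sequencing of 1 Ly6Chi and 1 Ly6Clo macrophage library was processed by the authors. CASAVA 1.8.2, TopHat and the build mm10 are named, per the submitters' processing notes. For the counter, annotation, strand setting and scaling, nothing is stated in labels or headers. In the one table that the authors deposited, the statistic is a signed score per gene and the ranking a score for its size, per the file headers. The recomputed rank matched the deposited one within 1e-06 for 23284 of 23284 genes. Both remaining columns, 2 in all, hold per-library values under names that fit no sample label. They were not used, so library depth, CPM and intervals for single genes are not given.

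Members were found by symbol and placed in role groups. Counts per side and medians were computed over genes with a value other than 0, and checked on simulated data. The interval of a median is the 95% binomial interval over genes. No test was run, since there are no replicates. Members and lists were chosen with earlier results of these data known. The genes described were the immunoproteasome and catalytic subunits, Psme1, Psme2, the extremes of each role group, the 5 largest members on each side and the 4 largest of each list. Other members were given to account for all of them, and Vcp, Adrm1, Pomp and Nfe2l1 were named after their values were seen. Promoter windows came from RefSeq (GRCm38.p6), and overlaps and common runs of 50 bases from GENCODE M21. The planned comparison of proteins was not made. Computation used Python 3.11.15 with SciPy 1.17.1, NumPy 2.4.6 and pandas 2.3.3, and figures used Matplotlib 3.10.9.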

Additional observations from a re-analysis of the deposited data

How the results depend on the processing

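No paired analysis was possible because there is 1 library for each population, and without either one nothing remains to compare. The median statistic of the 49 members, -0.129, was -0.105 as a mean, -0.142 without immunoproteasome, tissue-restricted and chaperone genes, and -0.132 without Psmc3ip, an alternative chosen after seeing the data. No member was at 0. With a minimum size of 0.05 the count of positive members was 6 and with 0.1 it was 2, in place of 10, while negative members numbered 37 and 28 in place of 39. Of 28 alternative values for 13 medians, 27 kept their sign and lay inside the binomial interval of the median, or the range of members for groups of under 6 genes. The exception was the 20S assembly chaperones, with a median of 0.0234 and a mean of -0.0121. Much of this outcome was fixed in advance. Counting genes at 0 could change no median, since none of these lists held such a gene. A range of members always holds their mean, and for groups of 6 or 7 genes the binomial interval was the full range. The count of 27 therefore says little about robustness. Over all genes, a minimum size of 0.1 left 3634 negative and 4964 positive, and 0.5 left 230 and 878. Small scores carry no known error, since depth and scaling were not available for them, and the sign of single members under 0.05 in size is not read, though counts over any size include them.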

Other observations

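Other large complexes were set beside the constitutive proteasome subunits, by lists chosen after seeing the data. The COP9 signalosome removes the ubiquitin-like protein NEDD8 from cullin ligases, and together with the translation initiation factor eIF3 it shares the architecture of the 19S lid. Of 9 signalosome genes 6 were negative, with a median of -0.0440 and an SD of 0.0846 over genes computed from the authors' deposited table, from -0.149 for Cops6 to 0.131 for Cops3. Of 12 eIF3 genes with a value other than 0, 7 were negative, with a median of -0.0213 and an SD of 0.119, from -0.158 for Eif3a to 0.255 for Eif3f in the authors' deposited table. The cytosolic chaperonin CCT, which folds actin and tubulin, had 4 negative and 4 positive genes, with a median of 0.00745 and an SD of 0.0784, from -0.138 for Cct8 to 0.117 for Tcp1 in the authors' deposited table. All 8 lid genes of the proteasome that met the symbol rule were negative, with a median of -0.184 and an SD of 0.0741. The share of negative values among all genes with a value other than 0 was 42.3%, and the difference between these complexes was not tested.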
